A study of Mus musculus with 6 samples.

Results

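The genes described here encode zinc-dependent histone deacetylases, the enzymes that take acetyl groups off lysines of histones and other proteins. They are the 10 genes Hdac1, Hdac2, Hdac3, Hdac8, Hdac4, Hdac5, Hdac7, Hdac9, Hdac6 and Hdac11, chosen by name. Each matched 1 of the 31245 genes in the table, and all 10 were among the 16653 genes kept at a mean of at least 10 normalized counts. RNA came from 6 mouse primary cortical neuronal cultures made from pups of postnatal day 1 and used at 12 to 13 days in vitro. In 3 cultures NGPF2 (the labels do not expand the name) was given at 1.5 ng/ml for 2 h, and the other 3 had vehicle (PBS) for the same time. By the series, each of 3 experiments gave 1 pair, and cultures of the same replicate number are taken as that pair. No genotype or strain is given in the labels.

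Acetylation of histone tails loosens chromatin, and deacetylases reverse it. Class I enzymes (Hdac1, Hdac2, Hdac3 and Hdac8) are mostly nuclear, and the first 3 of these work as the catalytic subunits of large corepressor complexes. Class IIa enzymes (Hdac4, Hdac5, Hdac7 and Hdac9) have little deacetylase activity of their own in vertebrates, bind MEF2 transcription factors, and shuttle between nucleus and cytoplasm. When calcium-activated kinases phosphorylate them, 14-3-3 proteins bind them and they leave the nucleus, a route by which neuronal activity reaches MEF2 target genes. Hdac6, of class IIb, acts on tubulin in the cytoplasm, and Hdac11 is the sole class IV enzyme.

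Hdac5 was the gene with the clearest treatment difference within replicates 2 and 3, and Hdac9, of the same class, had lower values in the same libraries, while Hdac4 had higher ones. The promoter windows of these 3 class IIa genes are therefore shown, from 250 bases before to 30 bases after each start in RefSeq (GRCm38.p6), all on the minus strand and written 5′ to 3′ along the gene. Capitals mark every match, on either strand, to GGGCGG (the GC box), TGACG (a cyclic AMP response half-site), CACGTG (an E-box) or the MEF2 consensus. Overlapping matches run together, as in Hdac5, where a CACGTG and a TGACG share bases.
Hdac5, chr11:102230143-102230422: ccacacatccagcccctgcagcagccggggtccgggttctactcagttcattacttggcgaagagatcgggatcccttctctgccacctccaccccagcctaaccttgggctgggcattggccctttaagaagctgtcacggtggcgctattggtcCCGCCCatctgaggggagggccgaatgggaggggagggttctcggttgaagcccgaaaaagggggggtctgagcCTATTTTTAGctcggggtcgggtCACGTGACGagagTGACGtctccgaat
Hdac4, chr1:92180312-92180591: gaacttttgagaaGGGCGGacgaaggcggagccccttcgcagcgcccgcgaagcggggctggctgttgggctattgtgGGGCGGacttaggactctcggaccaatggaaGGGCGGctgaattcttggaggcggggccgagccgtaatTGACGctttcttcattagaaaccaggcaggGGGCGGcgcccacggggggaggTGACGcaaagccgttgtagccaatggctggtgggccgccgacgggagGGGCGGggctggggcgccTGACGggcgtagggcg
Hdac9, first start, chr12:34917066-34917345: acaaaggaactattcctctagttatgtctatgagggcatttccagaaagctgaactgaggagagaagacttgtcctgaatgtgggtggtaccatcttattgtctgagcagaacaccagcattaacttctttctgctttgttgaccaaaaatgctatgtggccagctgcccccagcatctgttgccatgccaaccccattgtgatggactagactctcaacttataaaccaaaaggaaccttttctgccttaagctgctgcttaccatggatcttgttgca
Hdac9, second start, chr12:34528860-34529139: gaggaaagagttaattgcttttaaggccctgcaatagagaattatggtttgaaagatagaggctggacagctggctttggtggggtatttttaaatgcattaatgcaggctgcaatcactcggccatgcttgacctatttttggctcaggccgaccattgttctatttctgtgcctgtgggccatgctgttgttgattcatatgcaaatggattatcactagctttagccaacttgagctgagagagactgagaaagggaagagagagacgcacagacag

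The Hdac5 window held 1 match to the MEF2 consensus, beginning 20 bases before the start, 1 CACGTG and 2 TGACG matches after the start, and 1 GGGCGG. The Hdac4 window held 5 GGGCGG and 3 TGACG matches and no match to the other 2 motifs. Neither Hdac9 window held any of the 4, and each had 44.6% G and C, against 60.4% in Hdac5 and 67.1% in Hdac4 and a median of 52.5% over the 32851 windows of all genes. Over all these windows 34.7% held GGGCGG, 19.9% TGACG, 6.79% CACGTG and 3.06% the MEF2 consensus. RefSeq gave 12 windows for 8 of the 10 genes. Of the 8 genes, 6 held GGGCGG, 3 held TGACG, and 1 each held CACGTG and the MEF2 consensus, in both cases Hdac5. A gene with more than 1 window was counted if any of its windows held the motif. These counts per gene are thus not comparable with the shares per window given above.

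The libraries held between 17478070 and 45193691 counts, deepest in replicate 1 of both groups. The library names of replicates 2 and 3 share a stem that replicate 1 lacks. Pair differences were more widely spread in replicates 2 and 3 (log2 SD across genes of 0.92 for pair 2 and 0.97 for pair 3, against 0.43 for pair 1). Results for the 10 genes are therefore given over the 3 pairs and then by these sets. For lists of related genes, calls are given mostly in replicates 2 and 3. All 6 neuron markers (Tubb3, Rbfox3, Map2, Snap25, Syt1 and Stmn2) were above 0 in each library. Their summed normalized counts lay between 163247 and 213496 with NGPF2 and between 163502 and 172593 with vehicle. Astrocyte markers were also present, none of the 10 at 0. They summed to 25914, 17407 and 14300 normalized counts in NGPF2 replicates 1, 2 and 3, and to 22372, 61346 and 54956 in vehicle replicates 1, 2 and 3. Slc1a2 weighs heavily in these sums, with 6056, 12812.5 and 10237 in NGPF2 replicates and 2697, 21468.5 and 18606 in vehicle replicates. Its log2 difference in replicates 2 and 3 was -0.80, while the median of the 10 astrocyte markers was -2.93. All 10 passed as lower with NGPF2 in replicates 2 and 3 (limma, adjusted p under 0.05). The same held for 6 of 8 microglia markers (Aif1 and Cx3cr1 stood at 0 in at least 1 library), 3 of 5 oligodendrocyte precursor markers and 5 of 5 markers of dividing cells. Also lower were 2 of 5 oligodendrocyte and 2 of 6 mural and fibroblast markers. Higher were 3 of 6 neuron and 4 of 5 inhibitory neuron markers (2 of the latter with quantile scaling). Of 5 excitatory neuron markers 1 rose and 2 fell. Over all genes 9.77% passed as higher and 11.3% as lower. In RNA of whole cultures, fewer cells of a type and less RNA per cell cannot be told apart. The part of these marker differences in the deacetylase values of replicates 2 and 3 was not tested.

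The genes lie apart in the genome (mm10, GENCODE M21). Among class IIa genes, Hdac5 (ENSMUSG00000008855) spans chr11:102194432-102230166, Hdac4 (ENSMUSG00000026313) chr1:91928779-92195699, Hdac9 (ENSMUSG00000004698) chr12:34047580-34917095 and Hdac7 (ENSMUSG00000022475) chr15:97792664-97844502, all on the minus strand. Of class I, Hdac3 (ENSMUSG00000024454) spans chr18:37935844-37955016, Hdac8 (ENSMUSG00000067567) chrX:102284639-102505359 and Hdac1 (ENSMUSG00000028800) chr4:129516104-129542713 on the minus strand, and Hdac2 (ENSMUSG00000019777) chr10:36974544-37001889 on the plus strand. Hdac6 (ENSMUSG00000031161) spans chrX:7930120-7947889 on the minus strand and Hdac11 (ENSMUSG00000034245) chr6:91156665-91174692 on the plus strand. Overlaps with other genes are given as the largest between any pair of exons. For Hdac7 it was 29 bases with Slc48a1, which lies on the other strand and averaged 3494 normalized counts. Reads from the shared bases cannot be told apart without strand. On the same terms it was 1782 bases for Hdac4 with the lincRNA Gm26720, which was not analysed here. For Hdac11 it was 594 bases with Gm44002, which averaged 0.447 normalized counts, and 96 with Gm14573, which was not analysed here. For Hdac5 it was 111 bases with Mir8101, which lies on the same strand and averaged 1.06 normalized counts.

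Per length, the levels of the 10 genes spanned a wide range, with Hdac11 highest and Hdac7 and Hdac8 lowest. Levels here are CPM (counts scaled to the library total) per kb of exon. Hdac11 averaged 39.5 (lowest 35.4, highest 44.4 over the 6 libraries), and stood above each of the other 9 genes in every library. Hdac3 (22.3 on average, 18.7 to 27.6), Hdac2 (21.7, 19.1 to 23.7) and Hdac5 (21.4, 13.7 to 30.4) came next and their order was not fixed, since Hdac3 exceeded Hdac2 in 3 of 6 libraries and Hdac2 exceeded Hdac5 in 3 of 6.

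Hdac9 averaged 11.9 on the same scale (7.50 to 16.7) and Hdac6 averaged 9.57 (6.97 to 13.3), with Hdac9 above Hdac6 in 5 of 6 libraries. Hdac1, which forms complexes together with Hdac2, averaged 7.69 (6.89 to 8.55) and lay under Hdac6 in 5 of 6 libraries. The level of Hdac2 was between 2.47 and 3.31 times that of Hdac1 in each library. Hdac4 averaged 6.53 (5.90 to 7.11) and lay below Hdac1 in all 6. Hdac8 (1.13, 0.610 to 1.62) and Hdac7 (1.11, 0.830 to 1.42) overlapped and stood clear of the other 8.

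These lengths join all annotated exons, which range from 3.45 kb for Hdac1 to 15.8 kb for Hdac4, and the choice of length moves the levels. With the longest coding transcript in place of the joined exons, Hdac5 moved above Hdac2 and the other 8 ranks were as before. Of the summed level per length of the 10 listed genes, class IIa genes made up 34.6%, 22.5% and 23.9% in NGPF2 replicates 1, 2 and 3. Their share was 33.2%, 27.4% and 27.6% in vehicle replicates 1, 2 and 3.

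**Figure D1:**
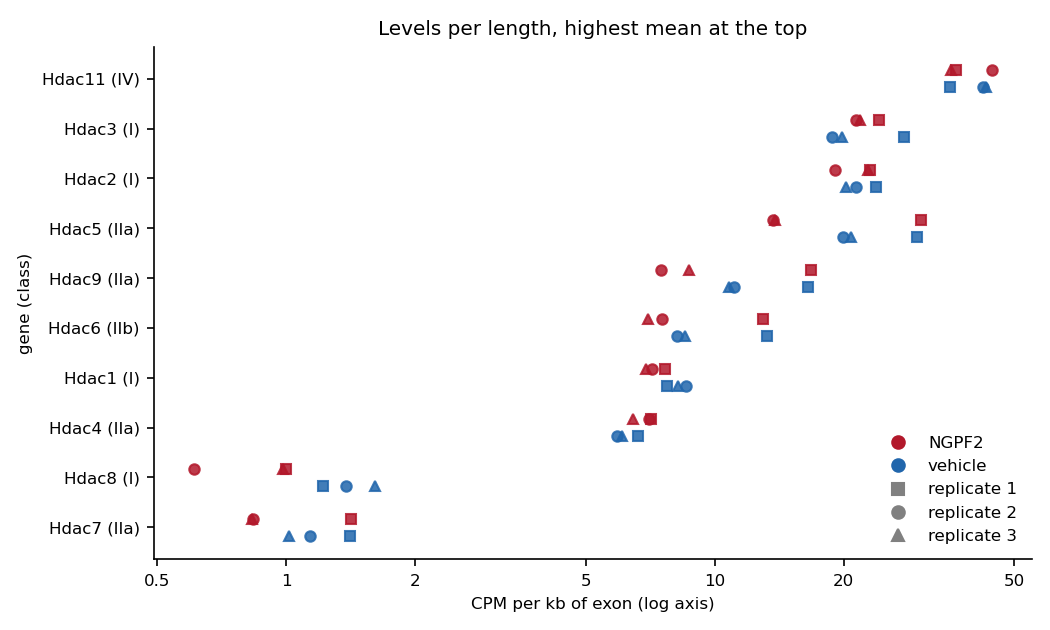
Level of each gene in CPM per kb of exon (horizontal, log axis), genes ordered by their mean over the 6 libraries, 1 point per library, coloured by group and shaped by replicate. Hdac11 lies between 35.4 and 44.4, and Hdac7 and Hdac8 lie at or below 1.62. The square points of replicate 1 stand to the right for Hdac5, Hdac9, Hdac6, Hdac7 and Hdac3, and narrowly for Hdac2.

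NGPF2 was first compared with vehicle over the 3 pairs, to ask which transcripts differ after 2 h of exposure. None of the 10 genes passed (limma with the pair as a block, adjusted p under 0.05 over all genes kept), where 0% of all 16653 genes passed. At an unadjusted p under 0.05 stood 1 of the 10, Hdac8, against 13.0% of all genes, and voom on the recovered reads also called 0 of the 10. The difference had the same sign in all 3 pairs for Hdac1, Hdac4 and Hdac8, thus for 3 of 10, against 36.4% of all genes. Without replicate 1, 2 of the 10 passed as lower, Hdac5 (adjusted p = 0.0185) and Hdac8 (adjusted p = 0.0450, limma). Of all 16653 genes 3275 passed, a share close to that of the 10. This fit is the same as that called the replicate block in replicates 2 and 3 below, so the 2 are not separate checks.

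Hdac8, a class I enzyme that deacetylates the cohesin subunit SMC3, had the largest difference of the 10. It stood at 139, 95.6 and 149 normalized counts in NGPF2 replicates 1, 2 and 3, and at 170, 196 and 227 in vehicle replicates 1, 2 and 3. Every NGPF2 library was below every vehicle library, but the gene is thinly covered, with 218, 80 and 83 reads with NGPF2 and 264, 219 and 190 with vehicle. The group means were 128 ± 28.4 with NGPF2 against 197 ± 28.2 in vehicle cultures (mean ± SD, n = 3 each). The log2 difference over the pairs was -0.64 (SE 0.22), with an adjusted p of 0.379 (limma).

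Hdac4, the class IIa enzyme that represses MEF2 and Runx2 targets, was the other gene whose groups did not overlap. It stood at 3250, 3602 and 3196 normalized counts in NGPF2 replicates 1, 2 and 3, and at 3030, 2743 and 2792 in vehicle replicates 1, 2 and 3. The lowest NGPF2 library was above the highest vehicle library by a margin smaller than the spread within the NGPF2 group. The log2 difference was 0.23 (SE 0.10, adjusted p = 0.390, limma). Groups that do not overlap were found for 2 of the 10 genes, against 10% of all genes (4.11% higher and 5.89% lower).

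The other 8 genes differed over the pairs by between -0.28 (Hdac5, SE 0.13) and 0.13 (Hdac3, SE 0.13) on the log2 scale, with adjusted p between 0.395 and 0.897 (limma). For Hdac5 the 95% interval ran from -0.60 to 0.04, for Hdac6 from -0.31 to 0.19 and for Hdac11 from -0.24 to 0.30. The median log2 difference of the 10 genes was -0.08, against -0.0052 for all genes kept.

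**Figure D2:**
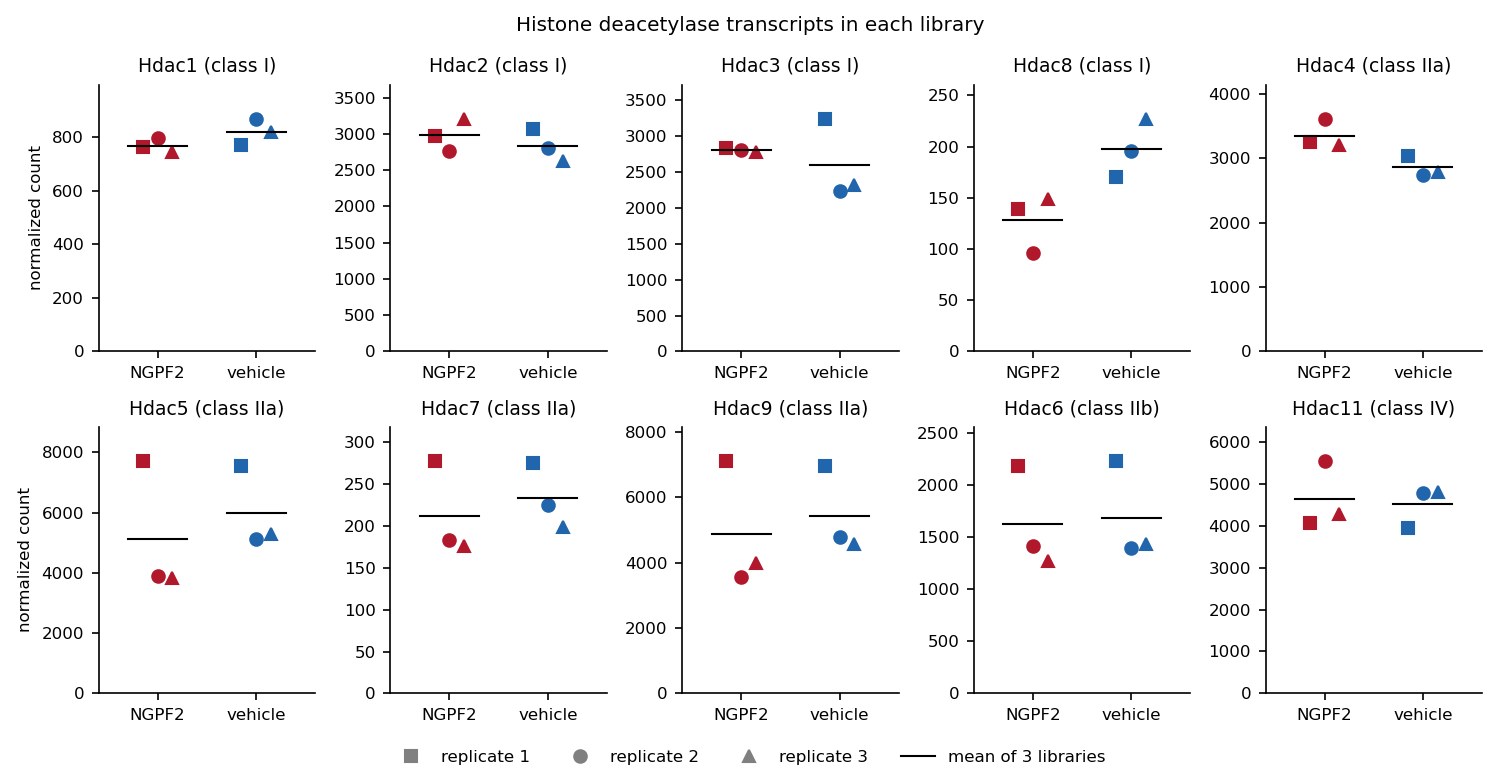
Normalized count (vertical, linear from 0) of each gene in each library, NGPF2 on the left and vehicle on the right of each panel, with a line at the mean of 3 libraries and a marker shape per replicate. Groups do not overlap for Hdac8 and Hdac4, and the square of replicate 1 lies above both other replicates in both groups for Hdac5, Hdac7, Hdac9 and Hdac6, and for Hdac3, narrowly so with NGPF2.

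Within replicates 2 and 3, with 2 libraries per group, Hdac5 fell and Hdac3 rose with NGPF2. These are 2 of the 10 genes, 1 in each direction. Of all genes 21.1% passed (9.77% higher and 11.3% lower), so the share of the 10 was near that of the table as a whole. The test takes replicates 2 and 3 as independent cultures. With quantile scaling or scaling to library totals the split was 0 higher and 2 lower, the lower genes being Hdac5 and Hdac9, and library totals moved the median log2 difference of all genes by -0.13. Unadjusted p was under 0.05 for 5 of the 10, against 36.8% of all genes. In these libraries 7 of the 10 genes had groups that did not overlap, against 64.9% of all genes.

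Hdac5, a class IIa enzyme exported from the nucleus on neuronal activity, stood at 3888 and 3816 normalized counts in NGPF2 replicates 2 and 3, against 5134 and 5304 in vehicle replicates 2 and 3. Both NGPF2 libraries lay well below both vehicle libraries, and the difference between groups far exceeded that between replicates. In replicate 1 the gene stood at 7706 with NGPF2 and 7535 with vehicle. The log2 difference in replicates 2 and 3 was -0.44 (SE 0.06, adjusted p = 0.0118, limma), or 1.35-fold lower. With no variance trend the adjusted p was 0.0710. Without vehicle replicate 2 the difference was -0.46 (adjusted p = 0.149) and without vehicle replicate 3 it was -0.41 (adjusted p = 0.161), settings in which no gene of the table passed.

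Hdac9, a class IIa enzyme strongly expressed in neurons, had lower values with NGPF2 without passing. It held 3564 and 3995 normalized counts in NGPF2 replicates 2 and 3, against 4774 and 4578 in vehicle replicates 2 and 3, and 7100 with NGPF2 and 6970 with vehicle in replicate 1. The log2 difference in replicates 2 and 3 was -0.31 (SE 0.08, adjusted p = 0.0557, limma). The adjusted p was 0.0311 with quantile scaling, 0.0274 with library totals, 0.0406 with voom and 0.0338 without NGPF2 replicate 3. It was 0.0729 with the replicate block, 0.203 with no filter, 0.161 with no variance trend and 0.0975 without NGPF2 replicate 2, where the difference was -0.23.

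Hdac7, best known from endothelial cells and thymocytes, was sparse, at 183 and 176 normalized counts in NGPF2 replicates 2 and 3 and 225 and 199 in vehicle replicates 2 and 3. Replicate 1 held 277 with NGPF2 and 275 with vehicle. Its difference in replicates 2 and 3, -0.24 (SE 0.15, adjusted p = 0.316, limma), had the opposite sign, 0.0047, with quantile scaling. Hdac4 ran against the other class IIa genes, with a log2 difference of 0.29 (SE 0.08, adjusted p = 0.0659, limma) in replicates 2 and 3, and passed without NGPF2 replicate 3 (0.38, adjusted p = 0.0348). The difference of Hdac4 was 0.19 (adjusted p = 0.143) with quantile scaling, 0.17 (adjusted p = 0.174) with library totals and 0.21 (adjusted p = 0.113) without NGPF2 replicate 2.

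Ratios within a library do not depend on a scaling that multiplies all its genes by 1 factor, such as library totals, though quantile scaling can change them. The ratio of Hdac5 to Hdac4 levels per length was 4.27, 1.94 and 2.15 in NGPF2 replicates 1, 2 and 3, and 4.48, 3.37 and 3.42 in vehicle replicates 1, 2 and 3. That of Hdac9 to Hdac4 was 2.36, 1.07 and 1.35 in NGPF2 replicates and 2.48, 1.88 and 1.77 in vehicle replicates. In both cases the NGPF2 value was the lower one in each pair, by little in pair 1. The genes of these ratios were picked for differences seen in the same libraries. The ratios therefore restate the values above and are not a separate result.

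Among the class I genes, Hdac3, the catalytic subunit of the NCoR and SMRT complexes, stood at 2805 and 2782 normalized counts in NGPF2 replicates 2 and 3, against 2233 and 2325 in vehicle replicates 2 and 3. Its log2 difference there was 0.29 (SE 0.07, adjusted p = 0.0398, limma). In replicate 1 the sign was the other one, with 2836 with NGPF2 and 3235 with vehicle. The call was not firm, since the adjusted p was 0.0742 with the replicate block, 0.0778 with quantile scaling, 0.152 with library totals, 0.0618 with no filter and 0.127 with no variance trend. It was 0.0643 without NGPF2 replicate 3 and 0.0742 without NGPF2 replicate 2. Without vehicle replicate 2 or 3 no gene of the table passed, and the difference of Hdac3 was 0.26 (adjusted p = 0.234) without vehicle replicate 2 and 0.32 (adjusted p = 0.199) without vehicle replicate 3.

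Hdac8 did not pass in replicates 2 and 3 at a log2 difference of -0.81 (SE 0.26, adjusted p = 0.0847, limma), and passed with the replicate block (adjusted p = 0.0450) and with voom (-0.86, adjusted p = 0.0468). Its difference was -1.13 (adjusted p = 0.0378) without NGPF2 replicate 3, but -0.50 (adjusted p = 0.166) without NGPF2 replicate 2 and -0.52 (adjusted p = 0.188) with quantile scaling. Hdac1 and Hdac2, the paired catalytic subunits of the NuRD, Sin3 and CoREST complexes, did not pass. Hdac1 stood at 761, 795 and 745 normalized counts in NGPF2 replicates 1, 2 and 3, and at 769, 866 and 821 in vehicle replicates 1, 2 and 3. Hdac2 stood at 2974, 2765 and 3202 with NGPF2 and at 3066, 2809 and 2630 with vehicle. The 95% interval for replicates 2 and 3 ran from -0.37 to 0.11 for Hdac1 and from -0.12 to 0.38 for Hdac2 on the log2 scale.

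Hdac6, the tubulin deacetylase, held 2180, 1420 and 1272 normalized counts in NGPF2 replicates 1, 2 and 3, and 2229, 1397 and 1440 in vehicle replicates 1, 2 and 3. The groups overlapped, and the difference in replicates 2 and 3 was -0.08 (SE 0.09, adjusted p = 0.580, limma). Hdac11, which removes long fatty acyl groups from lysine, held 4071, 5534 and 4286 with NGPF2 and 3941, 4779 and 4803 with vehicle. Its difference in replicates 2 and 3 was 0.02 (SE 0.13, adjusted p = 0.914, limma), of opposite sign in pairs 2 and 3 (0.21 and -0.16), and it was -0.094 with quantile scaling and -0.10 with library totals.

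**Figure D3:**
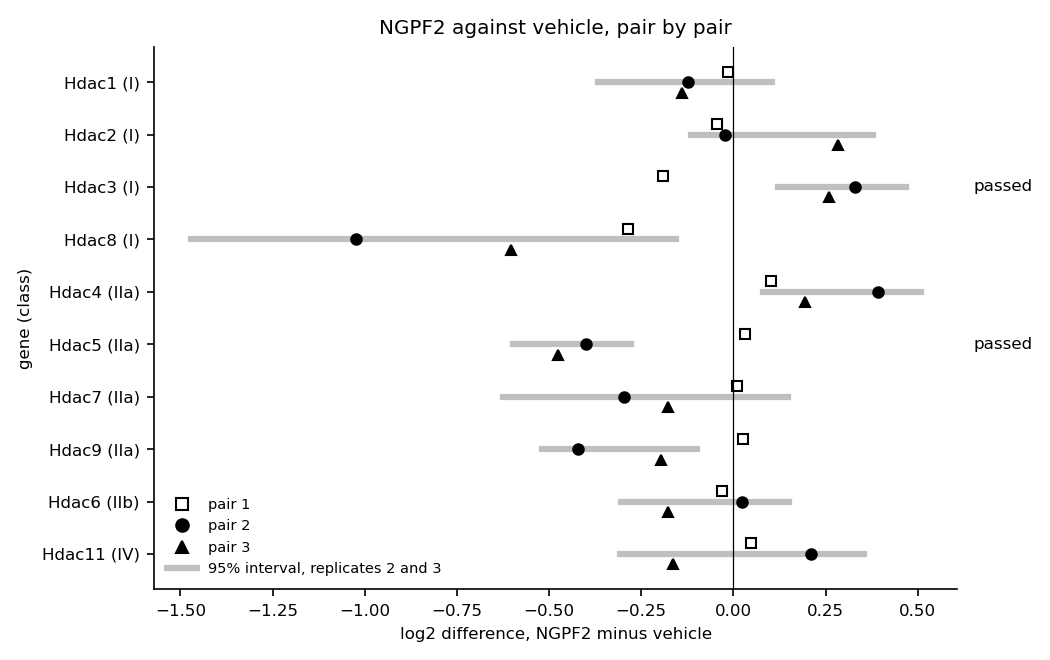
Log2 difference of NGPF2 minus vehicle (horizontal) for each gene in pair 1 (open squares), pair 2 (circles) and pair 3 (triangles), with the 95% interval of the limma estimate in replicates 2 and 3 as a grey bar. Hdac5 lies at 0.03 in pair 1 and at -0.40 and -0.48 in pairs 2 and 3, and Hdac3 at -0.19, 0.33 and 0.26.

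Whether the NGPF2 effect differed between replicates 2 and 3 and replicate 1 was tested directly. None of the 10 genes passed, where 2.49% of all genes did (limma, 0.721% higher and 1.77% lower), and voom also called 0 of the 10. Unadjusted p was under 0.05 for 2 genes, against 20.3% of all genes: Hdac3 (0.48, SE 0.12, adjusted p = 0.110) and Hdac5 (-0.47, SE 0.11, adjusted p = 0.0991). With no filter on low values both passed (adjusted p = 0.0324 for Hdac3 and 0.0319 for Hdac5), where the genes called in the whole table numbered 4684 in place of 415. With the replicate block the adjusted p was 0.189 for Hdac3 and 0.176 for Hdac5, and with no variance trend 0.270 for Hdac3 and 0.277 for Hdac5. Replicate 1 has 1 library per group, so its spread is taken to be that of the replicated libraries.

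The levels of several deacetylases also differed between the replicate sets. Among vehicle cultures 4 of the 10 genes were lower in replicates 2 and 3 than in replicate 1 and none was higher (limma, 2 libraries against 1), where 9.42% of all genes were lower and 10.5% higher. The 4 were Hdac6 (-0.65, SE 0.11, adjusted p = 0.0176), Hdac9 (-0.58, SE 0.10, adjusted p = 0.0197), Hdac5 (-0.53, SE 0.08, adjusted p = 0.0127) and Hdac3 (-0.51, SE 0.08, adjusted p = 0.0173). None of these passed without vehicle replicate 2 (adjusted p between 0.140 and 0.158) or without vehicle replicate 3 (between 0.133 and 0.172), settings in which at most 1 gene of the whole table passed and which say little about these 4. None passed without the variance trend (adjusted p between 0.0720 and 0.0889). Hdac11 passed as higher without NGPF2 replicate 2 (adjusted p = 0.0470) or without NGPF2 replicate 3 (adjusted p = 0.0466). Library, experiment and depth cannot be told apart in this comparison, and summed astrocyte markers were 61346 and 54956 normalized counts in vehicle replicates 2 and 3 against 22372 in vehicle replicate 1. In the same comparison 7 of 10 astrocyte markers and 5 of 5 markers of dividing cells were higher. Lower were 5 of 5 inhibitory neuron markers (median log2 difference -1.10), 2 of 8 microglia markers and 3 of 6 mural and fibroblast markers. Of 6 neuron markers 2 were higher and 2 lower. Also higher were 1 of 5 excitatory neuron, 2 of 5 oligodendrocyte precursor and 1 of 5 oligodendrocyte markers. The part of these cell types in the deacetylase differences was not tested.

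With NGPF2 the replicate sets are given as values without a test. Hdac5 in NGPF2 replicates 2 and 3 lay 50.0% below NGPF2 replicate 1, Hdac9 46.8%, Hdac6 38.2% and Hdac7 35.2%, whereas Hdac3 lay 1.49% below. Among vehicle cultures the corresponding values were 30.7% for Hdac5, 32.9% for Hdac9, 36.4% for Hdac6, 22.96% for Hdac7 and 29.6% for Hdac3. The order of the genes differed between the groups, and Hdac3 was nearly level with NGPF2. Hdac11 was lowest in replicate 1 of both groups and higher by 1.21-fold with NGPF2 and by 1.22-fold with vehicle in replicates 2 and 3 (for vehicle, adjusted p = 0.281, limma). For Hdac1, Hdac2, Hdac4 and Hdac8 the replicate 1 values lay within the range of the other 4 libraries.

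**Figure D4:**
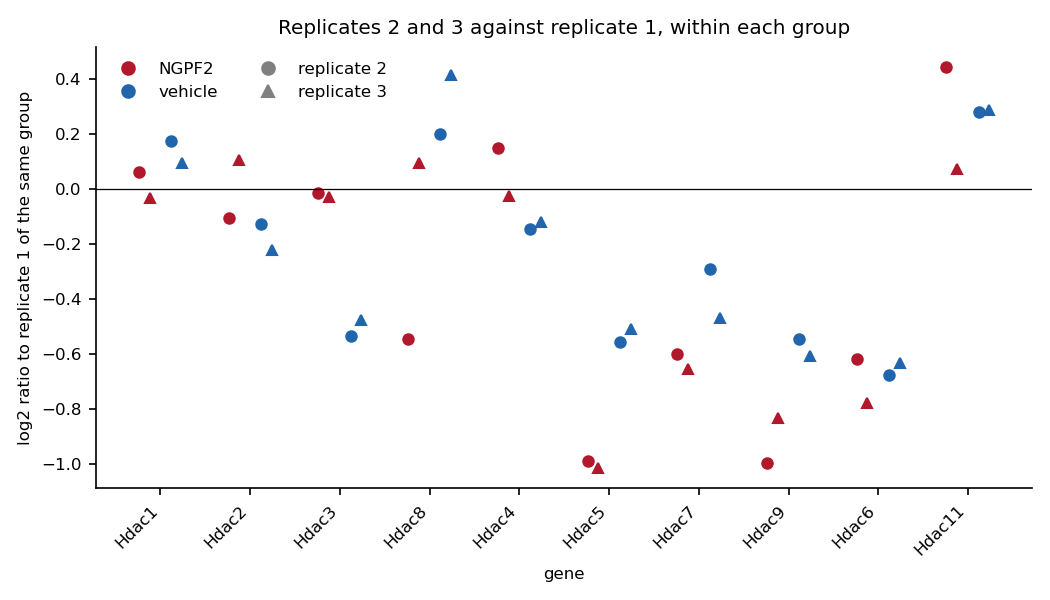
Log2 ratio of normalized counts of replicates 2 and 3 to replicate 1 of the same group (vertical) for each gene (horizontal), coloured by group. Hdac5, Hdac7, Hdac9, Hdac6 and Hdac3 lie below 0 in all 4 libraries (Hdac3 only just with NGPF2) and Hdac11 above 0 in all 4, and for Hdac5 and Hdac9 the NGPF2 points lie below the vehicle points.

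The partners and opponents of the deacetylases were read from 11 lists holding 84 genes, all of them kept. Over the 3 pairs none of the 84 passed and 8 had an unadjusted p under 0.05 (limma). In replicates 2 and 3, 16 rose and 4 fell, 23.8% of the list against 21.1% of all genes (9.77% higher and 11.3% lower). The median log2 difference was 0.08 against -0.0027 for all genes. This lean towards higher values depended on the scaling. The 14-3-3 list had 5 genes called higher, but 1 with quantile scaling and 2 with library totals. For the NuRD list the 2 higher calls became 0 with either scaling. Library totals also called 2 acetyltransferases and 1 CoREST gene lower. In pair 1 the median log2 difference of the 84 genes was 0.0069. When the NGPF2 effect was compared between replicate sets, 0 of the 84 passed, against 2.49% of all genes (limma). Replicates 2 and 3 are the libraries in which all 10 astrocyte markers fell and 3 of 6 neuron markers rose. Without vehicle replicate 2 or without vehicle replicate 3, 0 genes of the whole table passed, so these settings say nothing about a single call.

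In the NuRD list 2 of 12 rose, the remodeller Chd4 (1.23-fold, adjusted p = 0.0283) and the histone-binding Rbbp7 (1.26-fold, adjusted p = 0.0416), while with quantile or library total scaling none passed. In pair 1 the log2 difference was -0.0054 for Chd4 and -0.25 for Rbbp7. None of 12 Sin3 subunits passed, none had an unadjusted p under 0.05, and voom called 0. In the CoREST list Rcor2, a scaffold of the complex, rose 1.45-fold (adjusted p = 0.0384, 1 of 7). Tbl1xr1, a subunit of the NCoR and SMRT complexes that hold Hdac3, fell 1.83-fold (adjusted p = 0.00450, 1 of 5, limma), and it was -0.01 in pair 1 on the log2 scale. In the MiDAC list Trerf1 rose 1.64-fold (adjusted p = 0.0412, 1 of 3), and with library totals neither the CoREST nor the MiDAC list had a gene called higher and the CoREST list had 1 lower.

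The sirtuins, deacetylases that use NAD in place of zinc, had 0 of 7 genes past the threshold, 3 with an unadjusted p under 0.05, and 1 called by voom, while quantile and library total scaling each called 1 lower. Among 11 histone acetyltransferases 1 rose, the coactivator Ncoa1 (1.26-fold, adjusted p = 0.0277), while quantile scaling called none and library totals called 0 higher and 2 lower.

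The last lists concern the traffic of class IIa enzymes. Of 7 genes for 14-3-3 proteins 5 rose in replicates 2 and 3 and none fell, including Ywhah (1.38-fold, adjusted p = 0.0118), Ywhae (1.30-fold, adjusted p = 0.0156), Ywhab (1.24-fold, adjusted p = 0.0261) and Ywhaz (1.28-fold, adjusted p = 0.0296), while 1 passed as higher with quantile scaling and 2 with library totals. Of 13 kinases 4 rose and 2 fell. The calcium kinase subunits Camk2a (1.59-fold, adjusted p = 0.0120) and Camk2b (1.46-fold, adjusted p = 0.0210) rose, and the protein kinase D genes Prkd1 (3.81-fold, adjusted p = 0.00531) and Prkd3 (3.48-fold, adjusted p = 0.0136) fell. With quantile scaling the kinase split was 3 higher and 2 lower, and with library totals 2 higher and 3 lower. In pair 1 the median log2 difference was -0.014 for the 14-3-3 list and 0.034 for the kinases. It was 0.06 for Camk2a, 0.01 for Camk2b and 0.19 for Prkd3 in that pair.

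For Prkd1 the pairs gave log2 differences of -2.10 (pair 2) and -1.76 (pair 3), with 0.09 for pair 1. Of the 4 MEF2 factors only Mef2b passed, as lower, and it is close to the detection floor, with 20.5, 2.39 and 0 normalized counts in NGPF2 replicates and 17.4, 17.9 and 19.1 in vehicle replicates. Mef2c, a MEF2 factor of cortical neurons, varied between single libraries, at 11215, 6684 and 13674 normalized counts in NGPF2 replicates 1, 2 and 3, and at 5157, 17513 and 16188 in vehicle replicates 1, 2 and 3, and did not pass (adjusted p = 0.144, limma). It was named after its values were seen.

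**Figure D5:**
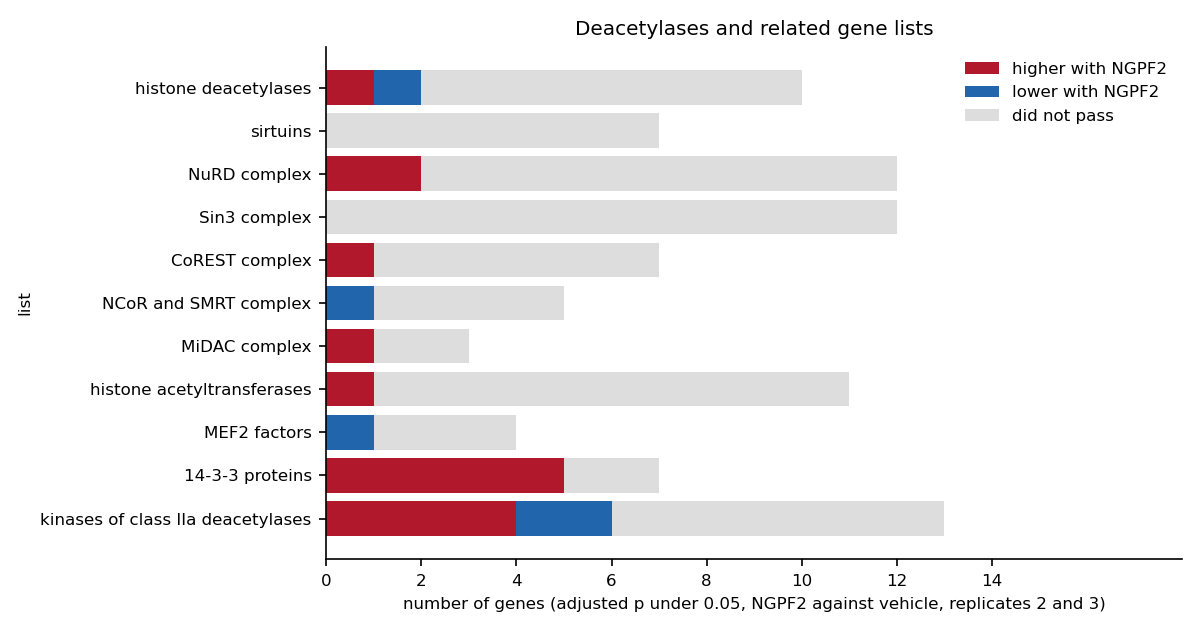
Number of genes (horizontal) that passed as higher or lower with NGPF2, or did not pass, in replicates 2 and 3 (limma, adjusted p under 0.05) for the 10 deacetylases and 10 of the related lists. The 14-3-3 list has 5 of 7 higher, the kinase list 4 higher and 2 lower, and the sirtuin and Sin3 lists none.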

How the data were processed

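The 6 libraries were made from mRNA captured on oligo(dT) beads, per the labels' protocols. FastQC, STAR 2.5, Cuffnorm, DESeq 1.22.1 and mm10 appear, without role or order, per the submitters' processing notes. How reads were counted, and whether by strand, is not given in the sources used here. The authors deposited log2 values of a normalized count plus 1 under a file name that says FPKM. Undoing the log2 and dividing by the smallest step of a library returned whole reads for 100% of values (tolerance 0.01). The log2 values were tested as deposited (pseudocount 1) with limma 3.58.1 in R 4.3.3 over the genes kept at a mean of at least 10 normalized counts, 2-sided, with a mean-variance trend and Benjamini-Hochberg adjustment. Fold changes of low genes are understated on this scale.

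The columns of replicates 2 and 3 carry the library names in the titles, and the remaining column of each group, which carries the digit 3, was taken as replicate 1. The pairing comes from the series' statement of 3 experiments. Deviations from the group means correlated at r = 0.594, 0.299 and 0.333 across genes for same-numbered libraries, and in replicates 2 and 3 no deviation was shared by number (r = -0.0146). If replicates 2 and 3 were repeats of 1 culture, no test could be made within them.

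All 10 genes were named, and of each related list up to 4 genes that passed in replicates 2 and 3, by smallest p, except in 1 list whose result is not reported here. Members, lists and fits were chosen with earlier results of these data known. Alternatives changed the pseudocount, the filter, the scaling, the variance trend, the block and the tool (voom on the recovered reads). Over the 3 pairs each replicate was left out in turn, and in the other fits each library of replicates 2 and 3. No library of replicate 1 was left out alone. Mideas was matched through its older symbol Elmsan1. Lengths and positions come from GENCODE M21, promoters from RefSeq GRCm38.p6. The fits were also run on simulated counts. These were drawn from the mean of vehicle replicates 2 and 3, with the same dispersion for all genes. The simulation held no difference between replicate sets, so it cannot show how the fits behave under the differences seen here. Python 3.11.15 with matplotlib 3.10.9 made the plots.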

Additional observations from a re-analysis of the deposited data

How the results depend on the processing

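Of 510 alternative values for the 10 genes, 454 kept their direction and side of the threshold, 27 lost the call, 16 gained it and 13 changed sign. The fit over the pairs without replicate 1 and that of replicates 2 and 3 with the replicate block are the same fit, counted under both. Over the 3 pairs, 0 genes were called, and 0 to 2 when 1 replicate was left out, with 0 under no replicate block. In replicates 2 and 3, 2 were called, with 1 under no filter, 0 under no variance trend, 4 under voom, 0 to 4 when 1 library was left out and 2 with the replicate block. For the difference between replicate sets 0 were called, with 2 under no filter, 0 to 0 when 1 library was left out and 0 with the replicate block. Among vehicle cultures 4 were called, with 2 under no filter, 0 under no variance trend, 0 to 5 when 1 library was left out and 3 when both groups were used.

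Signs changed over the 3 pairs for Hdac7 with quantile scaling (0.017), for Hdac11 with quantile scaling (-0.048), library totals (-0.054) and without replicate 2 (-0.059), and for Hdac2 with library totals (-0.013) and without replicate 3 (-0.033). In replicates 2 and 3 they changed for Hdac7 with quantile scaling (0.0047), for Hdac11 with quantile scaling (-0.094), library totals (-0.10) and without NGPF2 replicate 2 (-0.16), and for Hdac6 without NGPF2 replicate 3 (0.0022). Without NGPF2 replicate 3 the difference between replicate sets changed sign for Hdac6 (0.034) and Hdac11 (0.16). At the other end of these ranges, leaving out 1 replicate gave 0.13 over the 3 pairs for Hdac2 (without replicate 1) and for Hdac11 (without replicate 3). Leaving out 1 library gave 0.21 for Hdac11 in replicates 2 and 3 (without NGPF2 replicate 3), and -0.12 for Hdac6 and -0.21 for Hdac11 in the difference between replicate sets (without NGPF2 replicate 2). The cause was not tested.

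Over all genes, 0 were called over the 3 pairs and 3275 without replicate 1. In replicates 2 and 3, 3511 were called, with 1074 under no filter, 1535 under no variance trend and 0 without vehicle replicate 2 or 3. For the difference between replicate sets 415 were called, with 4684 under no filter, 733 at a minimum of 50, 22 under no variance trend, 1368 by voom and 0 without vehicle replicate 2 or 3. Among vehicle cultures 3322 were called, with 1232 under no variance trend, 4999 by voom, and 1 or 0 without vehicle replicate 2 or 3. Hdac7 and Hdac8, at 80 to 433 reads, are limited by depth.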

Other observations

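Among vehicle cultures 17 of the 84 related genes passed between replicates 2 and 3 and replicate 1 (limma, 20.2% against 19.9% of all genes), 8 higher and 9 lower. Camk2a, a subunit of the main postsynaptic calcium kinase, was 4.03-fold higher in replicates 2 and 3 (adjusted p = 0.00182), the mitochondrial sirtuin Sirt3 1.91-fold higher (adjusted p = 0.0105) and Camk4, a nuclear calcium kinase, 1.73-fold higher (adjusted p = 0.00909). Sik1, a kinase of class IIa deacetylases, stood at a fold of 0.480 (adjusted p = 0.00699) and the acetyltransferases Kat6a and Crebbp at 0.643 and 0.717 (adjusted p = 0.00970 and 0.0216). These genes were chosen after their values were seen.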
